A study of Mus musculus with 6 samples.

Results

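The genes described here are the ligands and receptors of the tumour necrosis factor (TNF) superfamily, CD40 among them, together with the adaptors, kinases and caspase that carry their signals. The rule for members uses gene symbols and no measured value, but the family was picked with earlier results of these data known. Every symbol made of Tnfsf or Tnfrsf and a number was taken, and Tnf, Lta, Ltb, Cd40, Cd40lg, Cd27, Cd70, Fas, Fasl, Ltbr, Ngfr, Eda2r, Edar, Relt, Traf1 to Traf7, Tradd, Fadd, Ripk1, Ripk3, Casp8 and Cflar were added. This gave 58 genes of the 22609 in the deposited files, of which 17 encode ligands, 28 receptors and 13 intracellular proteins. Primary hepatocytes of 4-month-old male wild type mice, strain background C57BL/6, received PBS or 20 µg/mL LRG1 protein, a secreted leucine-rich glycoprotein, for 16 h. Each treatment had 3 libraries of poly(A) RNA, and no other agent or allele is named for either group. The libraries held 18625748 to 23036332 gene counts.

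Ligands of the superfamily are mostly trimers that cluster their receptors at the cell surface. Receptors with a cytoplasmic death domain, such as Fas and the TNF receptor encoded by Tnfrsf1a, can recruit FADD, TRADD and RIPK1 and through them activate caspase 8. Receptors without that domain, such as CD40, bind TRAF proteins and lead to NF-kB and MAP kinase signalling, and decoy receptors bind ligand without passing on a signal. In liver, hepatocytes are known for their sensitivity to Fas ligand and TNF, while CD40 is best known from B cells, dendritic cells and macrophages.

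Of the 58 members, 34 had enough counts to be tested. With LRG1, 17 of them were higher and 11 lower, and 6 did not pass the threshold (edgeR quasi-likelihood test, Benjamini-Hochberg adjusted p under 0.05 over all 12301 tested genes). That is 82.4% of the tested members called, beside a background of 51.4% of all tested genes, or 25.5% higher and 25.8% lower. The 3 libraries of one treatment lay wholly above or below those of the other for 28 of the 34, beside 57.6% of all tested genes. The median level was 28.4 CPM for tested members and 29.8 CPM for all tested genes. CPM is the read count of a gene scaled to the size of its library. All tested genes were divided into 4 equal groups by level. In the lowest group 8 of 12 members were called (40.8% of all genes there). In the next groups upward it was 5 of 6 (46.3%), 7 of 7 (55.1%) and 8 of 9 (63.3%). The part of coverage in the share called was not tested. The median log2 fold change, the base 2 logarithm of the LRG1 level over the PBS level, was 0.17 for members and that of all tested genes 0.0093, and the medians of the absolute values were 0.40 and 0.20. At least 2-fold differences were found for 4 members that were higher, Cd40, Relt, Tnfrsf11b and Tnfrsf23, and for 3 that were lower, Tnfrsf19, Tnfsf10 and Tnfsf9. Over all tested genes 4.07% were called and at least 2-fold higher and 5.43% called and at least 2-fold lower.

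**Figure D1:**
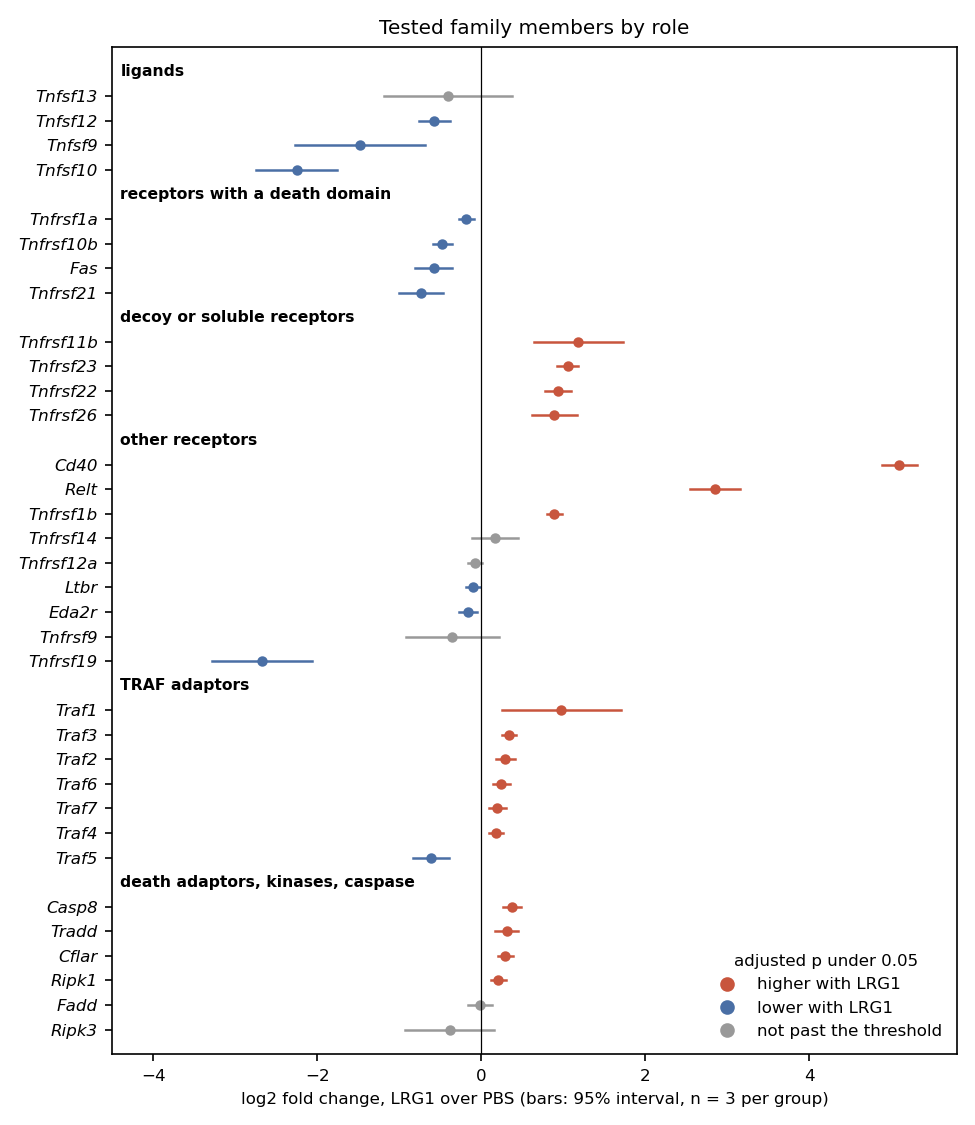
Log2 fold change of the 34 tested members (x axis, LRG1 over PBS), grouped by role, with 95% intervals from 3 libraries per group. The 4 tested receptors with a death domain lie left of 0, the 4 decoy or soluble receptors lie right of 0, and Cd40 lies farthest right at 5.10.

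The sequences upstream of the transcription start are shown first for the members that differed at least 2-fold and have an entry in the RefSeq promoter table, so that a reader can set the largest differences beside the DNA in front of those genes. Each line gives the 250 bases before the annotated start on build GRCm38.p6, 5′ to 3′ on the strand of the gene. Capitals mark matches, on either strand, to the GC box GGGCGG (printed CCGCCC where it lies on the other strand) or the TATA box TATAAA (printed TTTATA likewise).
Relt, chr7:100863414-100863663, minus strand: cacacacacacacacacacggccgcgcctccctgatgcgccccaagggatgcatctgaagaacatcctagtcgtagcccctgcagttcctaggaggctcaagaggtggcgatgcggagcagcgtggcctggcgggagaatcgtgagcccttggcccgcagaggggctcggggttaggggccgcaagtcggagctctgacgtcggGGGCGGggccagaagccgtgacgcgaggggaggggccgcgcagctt
Tnfrsf23, chr7:143685876-143686125, minus strand: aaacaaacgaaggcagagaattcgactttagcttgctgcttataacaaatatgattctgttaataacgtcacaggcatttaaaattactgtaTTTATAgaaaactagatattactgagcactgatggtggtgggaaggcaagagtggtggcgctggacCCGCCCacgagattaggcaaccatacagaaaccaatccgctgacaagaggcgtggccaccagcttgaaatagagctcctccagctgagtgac
Tnfrsf19, first start, chr14:61046856-61047105, minus strand: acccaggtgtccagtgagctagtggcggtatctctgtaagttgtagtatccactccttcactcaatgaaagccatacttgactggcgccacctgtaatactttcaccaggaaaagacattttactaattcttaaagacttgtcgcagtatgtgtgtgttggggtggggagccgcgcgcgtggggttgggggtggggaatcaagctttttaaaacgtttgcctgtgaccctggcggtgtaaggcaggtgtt
Tnfrsf19, second start, chr14:61037988-61038237, minus strand: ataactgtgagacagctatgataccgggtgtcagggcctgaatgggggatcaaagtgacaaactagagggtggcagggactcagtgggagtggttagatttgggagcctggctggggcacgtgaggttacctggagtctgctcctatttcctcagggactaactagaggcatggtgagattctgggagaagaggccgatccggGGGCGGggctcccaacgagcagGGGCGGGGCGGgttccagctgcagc
Tnfsf10, chr3:27316827-27317076, plus strand: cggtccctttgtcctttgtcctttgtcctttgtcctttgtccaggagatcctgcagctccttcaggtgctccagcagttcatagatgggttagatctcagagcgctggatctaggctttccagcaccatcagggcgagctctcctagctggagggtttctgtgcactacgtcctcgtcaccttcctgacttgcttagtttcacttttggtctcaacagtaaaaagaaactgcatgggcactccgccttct

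The table held windows for 47 of the 58 members, 52 windows in all because some genes have more than one start. Relt carries 1 GC box, at bases -46 to -41 counted back from the start. Tnfrsf23 carries a GC box at -92 to -87 and a TATA box letter match at -158 to -153, both on the other strand. One Tnfrsf19 window carries 3 GC box matches (that of the second start), of which the last pair, at -25 to -20 and -20 to -15, share a base, and the other window carries none. In Tnfsf10 none of the searched letters were found. GC boxes occurred in 32.7% of the 32851 mouse windows of this length and in 26 of the 52 windows of the members, and TATAAA in 12.4% and 8.

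The other motifs searched on both strands were the NF-kB consensus, the AP-1 site TGANTCA, the interferon-response core GAAANNGAAA and the paired SMAD box GTCTAGAC. The NF-kB consensus was in 5 of the 52 windows and in 7.25% of all windows. Among the tested members it stood in front of Traf3, as GGGGATTTCC at bases -10 to -1, and in front of the second start of Tnfrsf9, where 2 matches, GGGGATTTCC and GGGATTTCCC, overlap. Traf3 rose with LRG1 and Tnfrsf9 did not pass the test. AP-1 matches, where a match on one strand is always one on the other too, were in 6 windows (6.75% of all), among them Fas with TGAGTCA at -211 to -205. The interferon-response core was in 4 windows (2.98% of all), and in Tnfrsf1b it read TTTCGCTTTC at -10 to -1. The paired SMAD box was in none of the 52 windows and in 0.167% of all windows. These are matches of letters and not measured binding sites.

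Ligand genes were scarce in these cells, and no tested ligand rose. Of 17 ligand genes, 4 could be tested, and 3 of these fell with LRG1, beside 25.8% of all tested genes called lower. Tnfsf10 encodes TRAIL, a ligand of death receptors. It had 4.45, 5.23 and 3.77 CPM in PBS replicates 1 to 3 and 1.29, 0.518 and 1.06 CPM in LRG1 replicates 1 to 3. The lowest PBS library was well above the highest LRG1 library. The log2 fold change was -2.25 (standard error, SE, 0.24, adjusted p = 2.78e-08, n = 3 per group, edgeR), a 4.75-fold lower level, and the gene ranked 99th from the bottom among all tested genes.

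Tnfsf9, which encodes 4-1BBL, a co-stimulatory ligand for T cells, had 15, 16 and 15 raw counts in the PBS libraries and 4, 9 and 5 in the LRG1 libraries. The groups did not overlap (0.806 ± 0.0523 and 0.280 ± 0.0978 CPM, SD, n = 3; log2 fold change -1.48, SE 0.38, edgeR adjusted p = 0.00231). A lincRNA on the opposite strand covers 8.76% of its exon bases in GENCODE M21, and the library kit marks strand, but the sources used here do not say if the counting used it. Tnfsf12 encodes TWEAK, the ligand of the receptor gene Tnfrsf12a. It was the best covered ligand and fell 1.49-fold, from 14.9 ± 0.524 to 9.998 ± 0.152 CPM (SD, n = 3; edgeR adjusted p = 9.87e-06). Its neighbour Tnfsf13, which encodes APRIL, had 0.738 ± 0.2015 and 0.548 ± 0.259 CPM and did not pass (95% interval of the log2 fold change -1.18 to 0.38). Both genes share exon sequence with a read-through gene, over 50.73% and 60.05% of their exon bases, so how reads divided between them is uncertain.

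The other 13 ligand genes were below the limit for testing. Cd70, Tnfsf8 and Tnfsf11 had no count in any of the 6 libraries. Cd40lg, the partner of CD40, had no count in 5 libraries and 1 in LRG1 replicate 3. The gene for Fas ligand, Fasl, gave the same 6 numbers. Tnf had 8, 3 and 1 counts in the PBS libraries and 8, 11 and 10 in the LRG1 libraries, so the groups overlapped in CPM. In the fit with no low-count filter its adjusted p was 0.104. Ltb, a subunit of the membrane lymphotoxin that binds the lymphotoxin beta receptor, had 18, 8 and 10 counts with PBS and 6, 7 and 4 with LRG1. In the same unfiltered edgeR fit its adjusted p was 0.0344. Adjusted p-values of the unfiltered fit cannot be read on the scale of the main edgeR fit. For Tnfrsf1b it gave 9.2e-69 against 7.06e-14, and for Ltbr 0.0541 against 0.0314. Tnfsf13b, which encodes BAFF, had 7 and 17 counts in the PBS and LRG1 groups, and its libraries overlapped. Lta, Tnfsf4, Tnfsf14, Tnfsf15 and Tnfsf18 had at most 2 counts in any library. Fewer cells of a type and less RNA per cell cannot be told apart in these bulk samples. Beside the 3 ligands that fell, the sinusoidal endothelial markers Stab2 and Lyve1 were also lower (log2 fold changes -1.03 and -1.16), 4 others of that list did not pass, and the summed level of the 7 endothelial markers was 40.1 to 42.4 CPM with PBS and 33.8 to 37.9 CPM with LRG1. Their part in the ligand values was not tested.

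**Figure D2:**
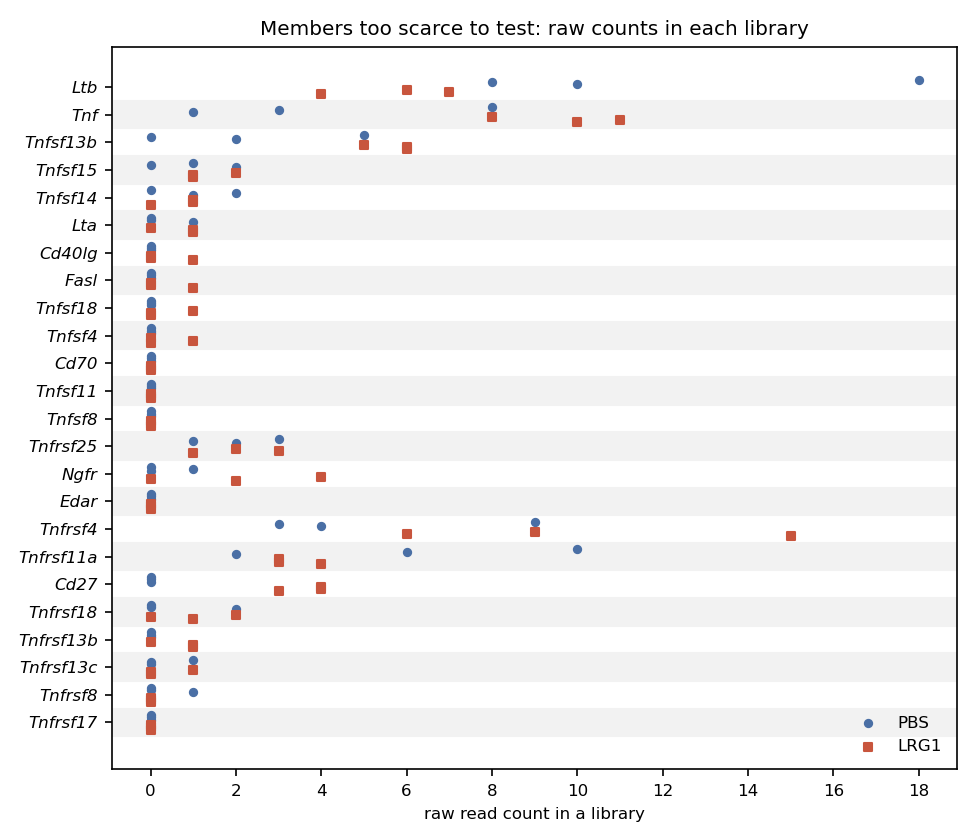
Raw read counts (x axis) of the 24 members too scarce to test, with 1 point per library and circles for PBS and squares for LRG1. No library exceeds 18 counts, and Cd27 is at 0 in every PBS library and at 3 or 4 in every LRG1 library.

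All 4 tested receptors with a death domain fell with LRG1. Their libraries did not overlap between treatments, but the differences were below 2-fold. Of all tested genes, 25.8% were called lower, and 57.6% had no overlap in either direction. Over all 17 tested receptors 7 were higher and 7 lower, and Tnfrsf19, Ltbr and Eda2r were lower without a death domain. Within the death-domain group Tnfrsf21, which encodes death receptor 6, had the lowest log2 fold change. Its values were 8.60, 7.81 and 8.23 CPM for PBS and 4.48, 5.83 and 4.38 CPM for LRG1 (log2 fold change -0.74, SE 0.13, edgeR adjusted p = 5.17e-05). Fas, the receptor of Fas ligand, had 14.3, 15.3 and 13.9 CPM with PBS and 11.7, 8.51 and 8.92 CPM with LRG1. LRG1 replicate 1 stood above the other two LRG1 libraries and below all PBS libraries (log2 fold change -0.58, SE 0.11, edgeR adjusted p = 0.000102). Tnfrsf10b, the mouse TRAIL receptor with a death domain, fell from 48.45 ± 1.56 to 34.9 ± 1.15 CPM (SD, n = 3), 1.39-fold. The gene of its ligand, Tnfsf10, was lower as well. Tnfrsf1a, TNF receptor 1, fell 1.13-fold, from 174.9 ± 10.1 to 154.1 ± 0.707 CPM (edgeR adjusted p = 0.001015). The remaining receptors of the group were at the edge of detection. Tnfrsf25 had 6 counts in each group, Ngfr 1 and 6, and Edar none.

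All 4 genes of the decoy and soluble receptor group were higher, with no overlap between treatments. Of all tested genes, 25.5% were called higher, and 57.6% had no overlap in either direction. Tnfrsf23 encodes a mouse decoy receptor for TRAIL and was the most abundant of the group. It had 87.4, 111.8 and 94.99 CPM with PBS and 211.2, 209.5 and 188.9 CPM with LRG1, a 2.07-fold difference (log2 fold change 1.05, SE 0.062, edgeR adjusted p = 8.78e-13). Tnfrsf22, the other mouse TRAIL decoy receptor, had 17.05, 20.1 and 17.99 CPM under PBS and 37.6, 36.01 and 31.8 CPM under LRG1 (log2 fold change 0.94, edgeR adjusted p = 4.78e-10). Tnfrsf26, a related receptor gene, had 4.30, 5.23 and 4.14 CPM with PBS and 9.31, 7.86 and 8.16 CPM in the LRG1 cells (log2 fold change 0.89, edgeR adjusted p = 4.56e-06). Fold changes of these 3 related genes were between 1.85 and 2.07.

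Sequence similarity limits how far Tnfrsf22 and Tnfrsf23 can be told apart. Of the distinct 50-base stretches in GENCODE M21 transcripts, the length of the reads, 27.4% of those of Tnfrsf22 and 19.3% of those of Tnfrsf23 also occur in another gene, mainly in each other. For Tnfrsf26 it was 1.89%. A transcript on the opposite strand, E230032D23Rik, covers 11.1% of the exon bases of Tnfrsf23 and 3.33% of those of Tnfrsf26. Tnfrsf11b encodes osteoprotegerin, a soluble decoy for RANKL and TRAIL, and shares no such stretch. It had 16, 15 and 16 raw counts with PBS and 41, 33 and 44 with LRG1, with no overlap. The levels were 0.822 ± 0.0231 and 1.89 ± 0.416 CPM (SD, n = 3; log2 fold change 1.18, SE 0.26, edgeR adjusted p = 0.000547). The ligand it is best known for, RANKL, is encoded by Tnfsf11, which had no count, and the RANKL receptor gene Tnfrsf11a had 18 counts with PBS and 10 with LRG1.

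Cd40 had the largest difference of the family and ranked 19th from the top among all tested genes. The libraries held 26, 37 and 31 reads of Cd40 with PBS and 1112, 1291 and 1164 with LRG1, which is 1.32, 1.99 and 1.65 CPM against 55.4, 55.8 and 58.6 CPM. The LRG1 libraries were close to each other and far above every PBS library. The log2 fold change was 5.10 (95% interval 4.88 to 5.31, edgeR adjusted p = 4.20e-21), a 34.3-fold difference. Only 0.501% of its 50-base stretches occur in another gene.

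Markers of the immune cells known for CD40 were measured in the same libraries. All 6 markers of T or NK cells had no count in any library. Of the B cell markers, Ms4a1 was at 0 throughout, Cd79a had 2 counts with PBS and 0 with LRG1, Cd79b had 4 and 0, and Pax5 had 5 and 4. Of the 8 dendritic cell markers, Flt3, Xcr1 and Clec9a were at 0 in all libraries, and the list summed to 11.5 to 14.1 CPM with PBS and 11.01 to 13.9 CPM with LRG1. Of that list H2-Ab1 was lower (log2 fold change -0.44, edgeR adjusted p = 0.0123), Zbtb46 and Cd74 did not pass, and the untested Itgax and H2-Aa had 3 and 10 counts with PBS and 26 and 22 with LRG1. The 9 macrophage markers, none of them at 0 throughout, summed to 219 to 266 CPM with PBS and 182 to 207 CPM with LRG1. Most of that sum was Cd68, which was lower, while Marco was higher (log2 fold changes -0.36 and 0.70) and the other 4 tested markers did not pass. The part of these markers in the Cd40 values was not tested. The hepatocyte markers, albumin among them, summed to 20550 to 21930 CPM with PBS and 19970 to 20840 CPM with LRG1, and 3 of the 6, Apoa1, Tat and Hnf4a, were lower.

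Cd27, another receptor known from lymphocytes, had 0 counts in each PBS library and 4, 4 and 3 counts in the LRG1 libraries. With the PBS total set to 3 counts over the 3 libraries, taken as the lowest level that can be told from 0, it was 3.32-fold higher. That ratio leaves out the sampling error of the few LRG1 counts and is not a lower limit. In the unfiltered edgeR fit the adjusted p of Cd27 was 0.00769, a value that cannot be read on the scale of the main fit. Its ligand gene, Cd70, had no count.

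**Figure D3:**
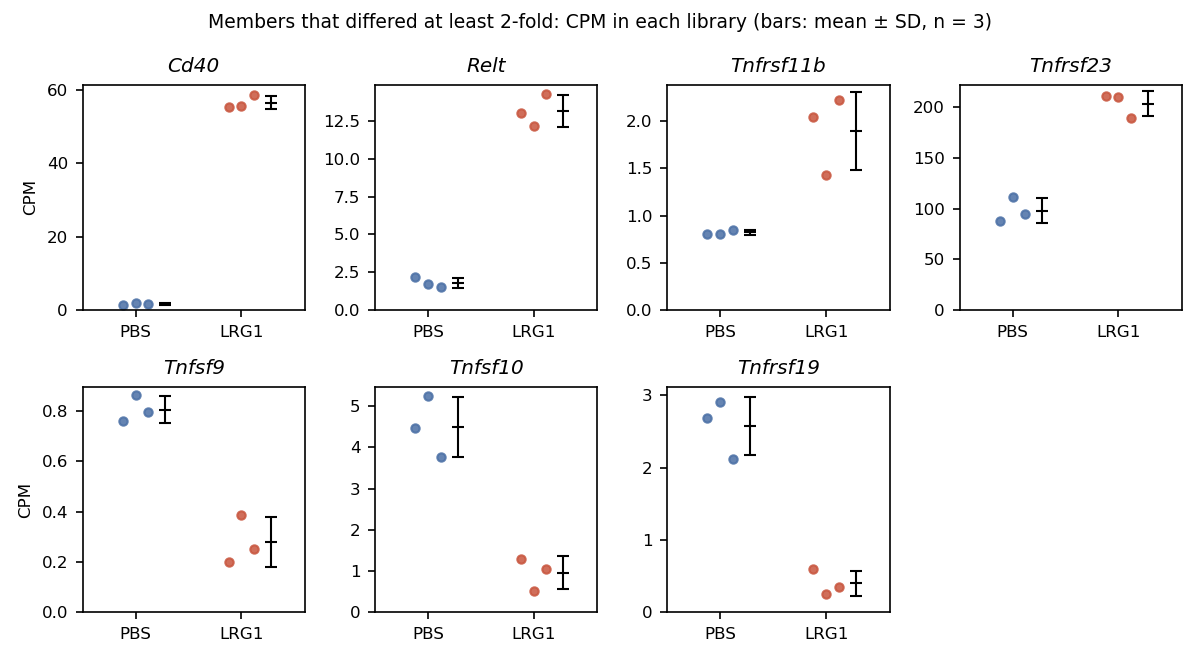
CPM (y axes, each from 0) of the 7 members that differed at least 2-fold, with 1 point per library and the mean ± SD beside them. In each panel the 3 LRG1 points lie wholly above or wholly below the 3 PBS points, and for Cd40 they lie between 55.4 and 58.6.

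Relt, a TNF receptor family member found mainly in lymphoid tissue, showed the next largest rise. Its values were 2.18, 1.72 and 1.54 CPM with PBS and 13.05, 12.2 and 14.3 CPM with LRG1, without overlap. The log2 fold change was 2.85 (SE 0.14, edgeR adjusted p = 5.92e-14), or 7.20-fold. Tnfrsf1b, TNF receptor 2, which lacks a death domain and binds TRAF2, had 57.1, 61.2 and 61.2 CPM with PBS and 111.9, 111.4 and 109.2 CPM with LRG1. Its 1.85-fold rise (log2 fold change 0.89, SE 0.046, edgeR adjusted p = 7.06e-14) stood beside the 1.13-fold fall of Tnfrsf1a, so the genes of both TNF receptors were called in opposite directions.

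Tnfrsf19 encodes TROY, a receptor known from skin, neural and stem cell compartments. It fell most of all members, with 53, 54 and 40 raw counts in the PBS libraries and 12, 6 and 7 in the LRG1 libraries. These correspond to 2.57 ± 0.405 and 0.403 ± 0.175 CPM (SD, n = 3; log2 fold change -2.68, SE 0.29, edgeR adjusted p = 4.82e-08). It ranked 42nd from the bottom among tested genes. The 8 markers of stellate cells or fibroblasts summed to 45.0 to 46.6 CPM with PBS and 143 to 153 CPM with LRG1. Of that list Col1a1 was higher, with means of 11.2 and 110 CPM, and so was Acta2, with 24.0 and 28.9 CPM. Reln was lower (log2 fold change -0.90), and Des, Pdgfrb and Dcn did not pass. The untested Lrat and Lum had 20 and 21 counts with PBS and 1 and 15 with LRG1. Of the 5 cholangiocyte markers, Krt19 was lower too (log2 fold change -2.50), Sox9 was higher (0.68) and Spp1 did not pass (0.0015). The untested Krt7 and Epcam had 9 and 22 counts with PBS and 25 and 48 with LRG1. That list summed to 4446 to 4630 CPM with PBS and 4325 to 4643 CPM with LRG1, mostly through Spp1. The part of these markers in the receptor values was not tested.

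The remaining receptors differed little. Eda2r, the receptor of ectodysplasin A2, fell 1.12-fold (47.9 ± 0.444 to 42.9 ± 0.962 CPM, SD, n = 3). Ltbr, the lymphotoxin beta receptor, fell 1.07-fold, from 177.5 ± 4.43 to 165.3 ± 3.46 CPM (edgeR adjusted p = 0.0314). Its call was lost with total-count scaling (adjusted p = 0.0601), with no low-count filter (0.0541), with the replicate block (0.0682), and without PBS replicate 2 (0.0618), PBS replicate 3 (0.111), LRG1 replicate 2 (0.104) or LRG1 replicate 3 (0.101). Tnfrsf12a, which encodes the TWEAK receptor Fn14, had 439.5 ± 18.97 and 417.4 ± 11.9 CPM and did not pass (adjusted p = 0.127, 95% interval of the log2 fold change -0.16 to 0.0085). Without PBS replicate 1 it passed as lower (adjusted p = 0.0375). Tnfrsf14, the receptor HVEM, and Tnfrsf9, the receptor 4-1BB, did not pass, with intervals of -0.12 to 0.45 and -0.92 to 0.22. Tnfrsf4, which encodes OX40, had 16 counts with PBS and 30 with LRG1, and its libraries overlapped. Tnfrsf8, Tnfrsf13b, Tnfrsf13c and Tnfrsf18 had at most 2 counts in any library and Tnfrsf17 none.

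Levels of different receptors were compared as CPM per kilobase of exon, with exon lengths from GENCODE M21. These lengths are approximate. That annotation is on another build than the mm9 of the counts, and only its basic set of transcripts gave the lengths. All its transcripts of Tnfrsf23 hold 3993 distinct 50-base stretches beside 1476 exon bases in the basic set, and those of Tnfrsf12a 2111 beside 1061. The places below may therefore change with the transcripts chosen. Tnfrsf12a had the highest level of the 28 receptor genes in both treatments, 414 ± 17.9 with PBS and 393 ± 11.2 with LRG1 (CPM per kilobase, SD, n = 3). In PBS cells Ltbr and Tnfrsf1a followed, at 84.2 ± 2.10 and 81.1 ± 4.67, which do not differ beyond their spread. Then came Tnfrsf23 at 66.4 ± 8.46, and Tnfrsf1b and Tnfrsf10b at 15.7 ± 0.624 and 15.2 ± 0.491, again within their spread. Cd40 was in place 15, at 0.553 ± 0.1135, with Relt, Tnfrsf19 and Tnfrsf9 at 0.636, 0.564 and 0.521, all within the spread of one another. With LRG1 the level of Cd40 was 18.95 ± 0.599, in place 6, below Tnfrsf1b at 29.0 ± 0.376 and above Tnfrsf10b at 10.97 ± 0.363. Tnfrsf23 was in place 2, at 138 ± 8.41, above Ltbr at 78.4 ± 1.65 and Tnfrsf1a at 71.5 ± 0.326. Tnfrsf19 went from place 14 to place 19.

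**Figure D4:**
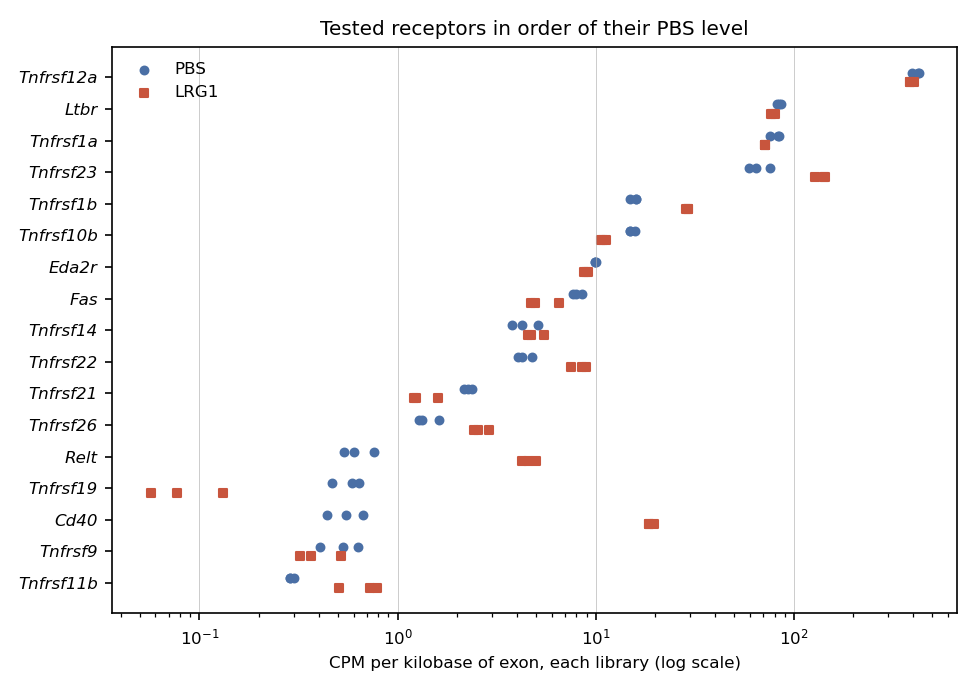
Level of the 17 tested receptor genes as CPM per kilobase of exon (x axis, log scale), with circles for PBS libraries, squares for LRG1 libraries and genes in order of the PBS level. Cd40 moves from among the lowest levels to 18.95, between Tnfrsf1b and Tnfrsf10b, while Tnfrsf12a stays highest.

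TRAF adaptors, several of which dock to receptors such as CD40 and TNF receptor 2, all passed the test. Of the 7 genes, 6 were higher and 1, Traf5, was lower, and no treatment groups overlapped. Of all tested genes, 51.4% were called, 25.5% of them as higher and 25.8% as lower in shares of all tested genes. No overlap was found for 57.6%. Traf1, a TRAF without a RING domain that is itself an NF-kB target, had 12, 6 and 9 raw counts with PBS and 20, 26 and 13 with LRG1. Its log2 fold change of 0.97 carried a wide error (SE 0.35, edgeR adjusted p = 0.0229). The call of Traf1 was lost with DESeq2 (adjusted p = 0.1001) and without PBS replicate 2 (0.1005), PBS replicate 3 (0.0582), LRG1 replicate 1 (0.0582) or LRG1 replicate 2 (0.116), in a range of 0.013 to 0.116 over the 14 alternatives that tested it. A filter of at least 1 CPM in 3 libraries removed the gene.

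Traf3, a brake on the non-canonical NF-kB pathway that binds CD40, had 84.1, 82.6 and 82.5 CPM with PBS and 104.0, 106.9 and 103.7 CPM after LRG1 (log2 fold change 0.34, SE 0.042, edgeR adjusted p = 4.18e-07). Traf2, which links receptors to the ubiquitin ligases cIAP1 and cIAP2, rose 1.22-fold, and Traf6, the TRAF shared with the interleukin 1 and Toll-like receptors, rose 1.18-fold. Traf7 and Traf4 rose 1.15-fold and 1.13-fold. Traf5, a close relative of Traf2 that also binds CD40, fell from 10.7 ± 0.358 to 7.01 ± 0.379 CPM (SD, n = 3), 1.53-fold. A transcript on the opposite strand covers 10.4% of the exon bases of Traf5.

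In the group of death-domain adaptors, kinases and caspase, 4 of 6 genes were higher and none lower, and no difference reached 1.5-fold. Over all tested genes 25.5% were called higher and 25.8% lower. Casp8, the caspase that starts the death-receptor cascade, had 46.1, 47.7 and 45.96 CPM with PBS and 63.3, 59.0 and 59.1 CPM with LRG1, a 1.30-fold rise (log2 fold change 0.38, SE 0.052, edgeR adjusted p = 1.61e-06). Cflar encodes cFLIP, which competes with caspase 8 at the receptor. It rose 1.23-fold, from 106.8 ± 6.63 to 131 ± 4.69 CPM. Tradd, the adaptor of TNF receptor 1, rose 1.24-fold, and Ripk1, the kinase at the branch between survival and death signals, 1.15-fold. Fadd, the adaptor of Fas, had 27.9 ± 2.24 and 27.5 ± 1.09 CPM and did not pass (95% interval of the log2 fold change -0.17 to 0.13). Ripk3, the kinase of necroptosis, was scarce at 1.45 ± 0.285 and 1.10 ± 0.241 CPM and did not pass (interval -0.93 to 0.15).

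Other genes of the pathway were read from the same fit. A list of 35 partners holds the kinases, ubiquitin ligases, NF-kB subunits and inhibitors and effector caspases that act next to the members. All 35 were tested, with 15 called higher and 8 lower (65.7% called, beside 51.4% of all tested genes) and 12 not called. Their median log2 fold change was 0.036. The smallest p-values belonged to Map3k5, Tnip1, Nfkb1, Tnfaip3 and Ikbke. Map3k5 encodes ASK1, a kinase downstream of TRAF2, and fell from 88.1 ± 4.74 to 38.7 ± 0.825 CPM (SD, n = 3), the only partner past 2-fold. Tnip1 and Tnfaip3 encode inhibitors of NF-kB signalling that act together and rose 1.69-fold and 1.41-fold. Nfkb1, the gene of the p105 and p50 subunit, rose 1.38-fold, and the kinase gene Ikbke fell 1.21-fold.

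A list of 20 NF-kB target genes had 17 tested members. Of these, 7 were called higher and 7 lower (82.4% called, beside 51.4% of all tested genes) and 3 were not called. The median of their log2 fold changes was 0.13. Nfkbia, Nfkb2, Relb, Birc3, Tnip1 and Tnfaip3 are in both lists, so the counts of the lists overlap. Besides Tnip1 and Tnfaip3, the smallest p-values belonged to Cxcl10, Ccl2 and Vcam1. These encode 2 chemokines and an adhesion molecule and rose 2.32-fold, 1.44-fold and 1.72-fold. The 7 target genes that were lower were Nfkbia, Icam1, Ccl20, Cxcl1, Cxcl2, Cxcl5 and Sod2, named here after their values were seen. Cxcl5 alone of these reached 2-fold.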

How the data were processed

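Poly(A) RNA of 6 hepatocyte samples was sequenced as single-end reads of 50 bases. The authors deposited raw read counts per gene symbol, made with bcl2fastq, TopHat2 and HTSeq on mm9, per the submitters' processing notes; no version, annotation or strand setting was found in the labels or file headers. The 5 HTSeq summary rows were left out. Reads that overlapped no gene made up 8.96 to 10.3% of uniquely aligned reads, a share that leaves out reads ambiguous between genes. Non-unique alignments were 58.2 to 59.3% of each file's total. Genes were kept by filterByExpr (minimum count 10), which left 12301 genes. The test was edgeR 4.0.16 (R 4.3.3; TMM, glmQLFit and glmQLFTest) on treatment, and p-values were adjusted by Benjamini-Hochberg across those genes, with 0.05 as the threshold. SE came from the F statistic. CPM used TMM-scaled libraries. No label ties the 3 samples of a group to separate animals, so p-values cover only how far these samples spread, and that spread may be technical.

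Members and lists were chosen with earlier results of these data known. The rule for naming gave every library's value to members at least 2-fold apart and past the threshold, values or ranges to the rest, and up to 5 genes per other list by smallest p. The fit was first tested on simulated data. Replicates differed by more than sampling noise (chi-square per degree of freedom 2.91 to 4.18), so each library counted once. Alternatives were 3 other scalings, 2 other filters, DESeq2 1.42.0, limma-voom (limma 3.58.1), a robust fit, a replicate block, and each library left out in turn. Promoter windows came from RefSeq (GRCm38.p6), exon lengths and shared 50-base stretches from GENCODE M21. The summed level of the B cell marker list is not reported here.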

Additional observations from a re-analysis of the deposited data

How the results depend on the processing

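Of the 28 called members, 26 kept their call and direction under each alternative that tested them. These numbered 15, except 14 for Tnfsf9, which a filter of at least 1 CPM in 3 libraries removed together with Traf1 and Tnfsf13. The exceptions were Ltbr and Traf1, and of the uncalled members Tnfrsf12a was called under 1 alternative. Over the alternatives 16 to 18 members were called higher and 10 to 12 lower. Fadd was the 1 member whose direction turned, with log2 fold changes of -0.082 to 0.034 when single libraries were left out (0.034 without PBS replicate 3 and 0.0093 without LRG1 replicate 3), and it passed in none. The replicate block gave 17 members higher and 10 lower and ended the call of Ltbr alone. Deviations of same-numbered samples correlated at -0.13, -0.016 and -0.12, and no sample correlated best with its own number. Deviations from the mean of only 3 samples cannot decide if same-numbered samples shared an animal or a preparation. The median of all tested genes was at most 0.0253 under any alternative. Depth limits the 24 untested members, of which 19 had at most 5 counts in any library. Reads shared between near-identical genes and transcripts on opposite strands leave Tnfrsf22, Tnfrsf23, Tnfsf12, Tnfsf13, Tnfsf9 and Traf5 uncertain, and in smaller shares of 6.21 to 7.87% of their 50-base stretches also Tnfrsf10b, Fadd, Cflar and Ripk1.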
